A study of Mus musculus with 8 samples.

Results

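The Pbx3 locus was examined as the span of Pbx3 (mouse gene ID 18516; mm10, chromosome 2, 34171457 to 34372045) with 100 kb on each side, a window of chromosome 2 from 34071457 to 34472045. A region belonged to it when the summit of any of its peaks lay in the window, a rule that uses position and no measured strength. Of 138385 regions in the union of all 8 peak lists, 29 were found there, comprising 1 at a gene end (summit within 1 kb of either end of Pbx3), 17 inside the gene and 11 in the flanks. Open chromatin was measured by ATAC-seq, which marks accessible DNA through insertion of sequencing adapters by a transposase, in sorted bone marrow cells of mice with leukemia driven by the fusion protein MLL-AF9, which all libraries share. The cells were leukemic granulocyte-macrophage progenitors (L-GMPs), gated as Lin-, Sca-1-, c-Kit+, CD16/32+ and CD34+. The KO libraries are labelled as knockouts of Dek, which encodes a chromatin-binding protein, KO 1 and KO 2 being Dekfl/fl,MX1-Cre and KO 3 Dekfl/fl;Tie2-Cre. Loss of the protein was not measured here. The 2 libraries named 4S-A carry alanine in place of the DEK serines 306, 308, 311 and 312. The controls, named FL, were Dekfl/fl in FL 1 and FL 2 and Dek+/+ in FL 3, so FL 3 carried no floxed allele. The Mx1 promoter responds to interferon and the Tie2 promoter is active in endothelium and blood stem cells, and the labels give neither the age of the mice nor whether libraries came from separate animals, so a p-value here measures only the spread between libraries.

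PBX3 is a TALE-class homeodomain protein. It binds DNA together with HOX proteins and with MEIS1, another TALE protein, and raises the affinity and selectivity of HOX proteins for their sites. Leukemias with MLL fusions are known for high levels of HOXA9, MEIS1 and PBX3, and PBX3 is named in the title of the study beside phosphorylated DEK. Mouse Pbx3 is read from the minus strand, so its upper end is its start. In bulk chromatin, fewer cells with an open site and a less open site in each cell cannot be told apart.

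Lists held 56245, 74026 and 93041 peaks in KO 1 to KO 3, 104605 and 94725 in the 4S-A libraries, and 51510, 54887 and 91586 in FL 1 to FL 3, so the lists of the Tie2-Cre set (KO 3, both 4S-A libraries and FL 3) were longer than those of the Mx1-Cre set. The sets are named after the Cre of their knockouts, and the genotypes of the FL and 4S-A libraries name no Cre. Peak names begin with ATAC-LSC in the Tie2-Cre set alone. Read depth is unknown. Strength is given throughout as the percentile of a peak's −log10 q within its own list, where the strongest peak has the highest percentile. A region at Dek was held by all 8 libraries at percentiles of 65.7 to 89.2, which checks nothing about the knockout because the deleted segment is not stated. Each gene below was judged by 1 gene end region, the one held by the most libraries. Ties went to the higher mean percentile, and other regions at the ends of the gene were not counted. Of the 4 gate genes, Kit, Cd34 and Fcgr2b had a gene end region in all 8 libraries and Fcgr3 in 7, the exception being KO 1, while Ly6a (Sca-1) had none in any library. A gene end region in all 8 libraries was also found at 6 of 6 genes of myeloid progenitors, 1 of 3 B cell genes (Ebf1, while Pax5 had none in any library), 1 of 2 T cell genes (Cd3d), 0 of 3 erythroid genes, 1 of 4 endothelial genes (Kdr) and 0 of 3 stromal genes. The region of Klf1, an erythroid transcription factor, was held by KO 3 (percentile of 26.9) and the 4S-A libraries (50.2 and 53.7). None of the other 5 libraries held it. The globin gene Hbb-bt was held by KO 2, KO 3 and FL 3 and by neither 4S-A library. The endothelial gene Pecam1 had a region in the 3 KO libraries alone, at 4.76 to 18.7. Absence from every FL library was found for 0.754% of everything the 3 KO libraries shared. Tek had a region in the 4S-A libraries alone, at 13.2 and 24.1. Absence from KO 3 and FL 3 was more common, at 10.8% of what the 4S-A pair shared. Neither share takes the remaining libraries into account. The endothelial gene Cdh5 was held by 6 libraries, all but KO 3 and FL 3. The part of such cells in the results at Pbx3 was not tested.

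**Figure D1:**
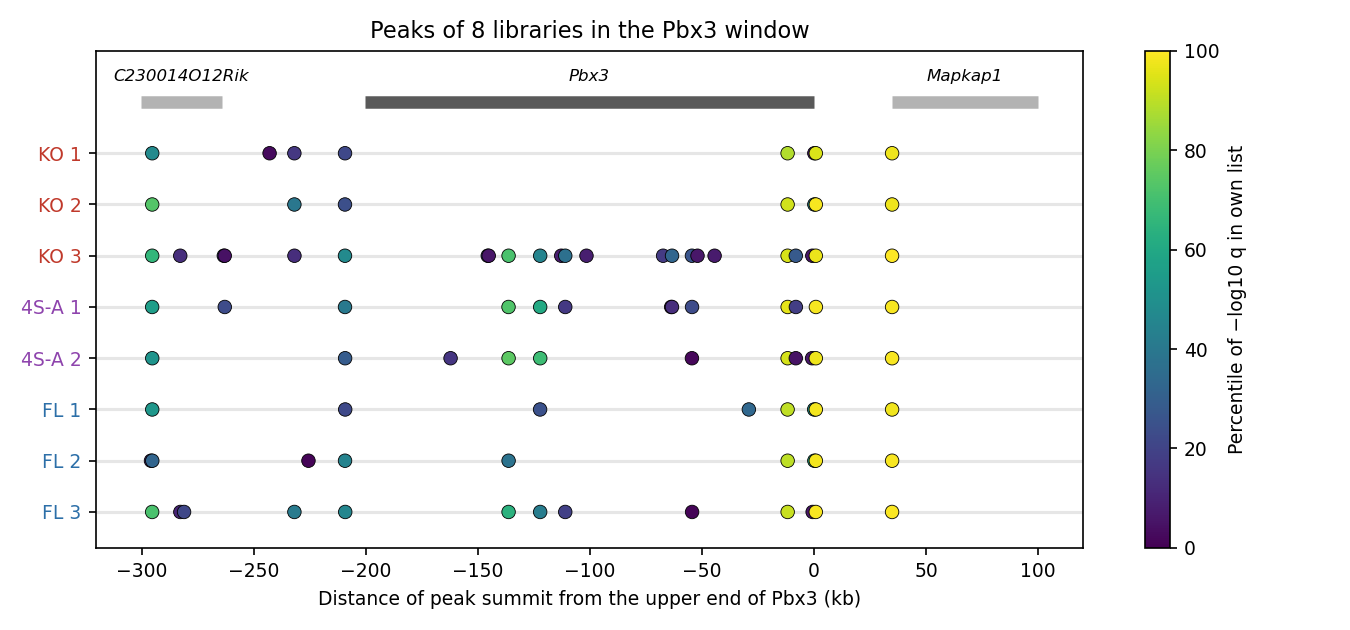
Each point is a peak summit of 1 library, placed by its distance in kb from the upper end of Pbx3 and coloured by its percentile of −log10 q in its own list, with gene spans as bars above. The summits at the upper end of Pbx3, 11.8 kb inside it and at Mapkap1 appear in all 8 rows, and the row of KO 3 holds the most summits inside the gene.

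The upper end of Pbx3, where transcription starts, carried the region of the gene with the highest −log10 q in every library. This region (chromosome 2, 34371079 to 34373416) reached percentiles of 94.3, 98.7 and 97.2 in KO 1 to KO 3, 98.5 and 97.6 in the 4S-A libraries, and 98.4, 98.3 and 98.8 in FL 1 to FL 3. KO 1 was the lowest of the 8 and FL 3 the highest, and the KO and FL values overlapped because KO 2 stood above FL 1 and FL 2. The KO mean was 96.8 ± 2.23 and the FL mean 98.5 ± 0.297 (SD, n = 3 each), a KO minus FL difference of −1.73 percentiles that was within the spread between libraries (p = 0.3 by a two-sided exact permutation test, which cannot go below 0.1 here). The difference was −1.80 within the Mx1-Cre set and, from 1 library each, −1.61 within the Tie2-Cre set, and 4S-A minus FL 3 was −0.83. Among the 33321 regions held by all 8 libraries, 3.92% had a higher mean percentile than this one.

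The shape of that region differed between the Cre sets. The summit of the main peak lay 738 to 787 bp outside the upper gene end in all 8 libraries, a range of 49 bp. The main peak was 818, 758 and 1727 bp wide in KO 1 to KO 3, 2320 and 1600 bp in the 4S-A libraries, and 855, 901 and 1620 bp in FL 1 to FL 3, so all 4 peaks of the Tie2-Cre set were wider than all 4 of the Mx1-Cre set. Widths split the same way 11.8 kb inside the gene (783 to 1313 bp against 351 to 469 bp). The neighbouring gene Mapkap1 also showed this split (765 to 821 bp against 455 to 714 bp), so it was not particular to the gene end. The share over all regions was not computed. Each library of the Mx1-Cre set also had a separate smaller peak with its summit 18 to 102 bp outside the gene end. That smaller peak ranked at percentile 8.44 in KO 1 and 43.1 in KO 2, and at 50.3 and 58.3 in FL 1 and FL 2, values that did not overlap. Of all regions held by these 4 libraries 7.5% were lower in both knockouts, but that share uses only the strongest peak of each region. It is therefore no background for a smaller peak, and by the strongest peak this region overlapped between KO and FL. In the Tie2-Cre set no separate peak was called at that place, which the wide main peak covers. A minor peak there lay inside the gene, with its summit 806 bp from the end in KO 3, 895 bp in 4S-A 2 and 657 bp in FL 3, at percentiles of 5.73 to 6.53. The fold enrichment the authors deposited for the main peak was 13.9, 16.2 and 9.21 in KO 1 to KO 3, 9.69 and 9.47 in the 4S-A libraries, and 13.9, 12.5 and 10.8 in FL 1 to FL 3. It was lower in every library of the Tie2-Cre set than in every library of the Mx1-Cre set. That order also held 11.8 kb inside the gene (12.7 to 13.5 against 14.9 to 19.4), but not at Mapkap1. These values are not scaled between libraries, and the share of all regions with that order was not computed. Whether it is particular to Pbx3 was therefore not tested. Ranked by fold enrichment in place of −log10 q, both knockouts of the Mx1-Cre set (percentiles of 97.2 and 98.2) stood above both of its controls (95.7 and 93.6), so the direction there turned with the measure. By the same ranks the region 11.8 kb inside the gene, described next, stood above the gene end in all 8 libraries.

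A second region was held by all 8 libraries inside the gene, 11.8 kb from the upper end (chromosome 2, 34359530 to 34360889). Its percentiles were 88.5, 92.7 and 94.1 in KO 1 to KO 3, 95.9 and 93.6 in the 4S-A libraries, and 90.4, 89.9 and 91.4 in FL 1 to FL 3. Both 4S-A values were above all 3 FL values, whereas the KO values lay on both sides of them. FL 1 and FL 2 are of the other set, with shorter lists, and the share of all regions with that order was not computed. Within the Tie2-Cre set 4S-A 2 (93.6) was below KO 3 (94.1). That order of 4S-A and FL was lost in lists of equal length, where 4S-A 2 (88.3) was below FL 1 (90.4) and FL 2 (89.2), and by ranks of fold enrichment, where the 4S-A libraries (93.0 and 92.3) were below FL 1 (99.6) and FL 2 (98.3). The KO mean was 91.8 ± 2.94 and the FL mean 90.6 ± 0.791 (SD, n = 3 each), a difference of 1.21 percentiles within the spread between libraries (two-sided exact permutation p = 0.6). The difference was 0.47 within the Mx1-Cre set and 2.69 within the Tie2-Cre set, and 4S-A minus FL 3 was 3.35. Its summits lay within 25 bp of each other.

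Deeper in the gene, 2 regions were held by 5 libraries each and by neither KO 1 nor KO 2. The region 136.4 kb from the upper end (34235186 to 34236114) stood at percentiles of 71.2 in KO 3, 72.6 and 74.9 in the 4S-A libraries, and 38.2 and 64.0 in FL 2 and FL 3, with no peak in KO 1, KO 2 and FL 1. The region 122.3 kb from the upper end (34249214 to 34250411) stood at 45.3 in KO 3, 60.3 and 68.6 in the 4S-A libraries, and 25.0 and 41.9 in FL 1 and FL 3, with no peak in KO 1, KO 2 and FL 2. At both regions the 4S-A libraries were the highest and each FL library of the Mx1-Cre set held 1 of the 2. Because FL 1 and FL 2 each lacked 1 of them, neither region met the rule for a loss, which asks for a peak in every FL and in no KO library of the set. The peak at 122.3 kb was 1063 and 1198 bp wide in the 4S-A libraries, against 381 bp in KO 3, 256 bp in FL 1 and 698 bp in FL 3.

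**Figure D2:**
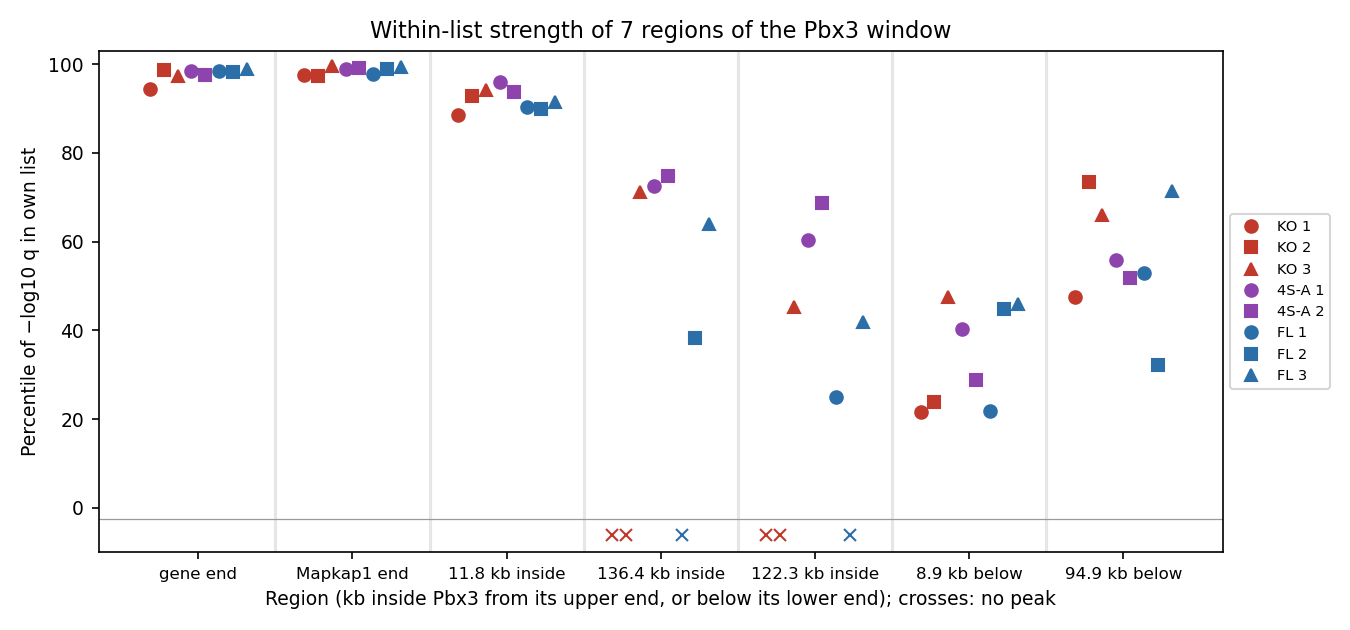
Percentile of −log10 q in each library's own list for 7 regions of the Pbx3 window, 1 marker per library (red KO, purple 4S-A, blue FL; shape gives the replicate number), with crosses for libraries that held no peak. KO 1 and KO 2 are crosses at 136.4 kb and 122.3 kb, where the 4S-A libraries are the highest, at 72.6 and 74.9 and at 60.3 and 68.6.

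The other 14 intragenic regions were weaker, with no percentile above 36.6. KO 3 held 14 intragenic regions in all, against 1 each in KO 1 and KO 2. The 4S-A libraries held 8 and 6, and FL 1 to FL 3 held 3, 2 and 5. KO 3 was thus the highest and the other knockouts the lowest of the 8 libraries. The KO mean was 5.33 ± 7.51 and the FL mean 3.33 ± 1.53 (SD, n = 3 each), a difference within the spread between libraries (two-sided exact permutation p = 1.0). In the Mx1-Cre set the KO minus FL difference was −1.5 regions (means of 1 and 2.5). In the Tie2-Cre set it was 9 regions (14 in KO 3 and 5 in FL 3), with 1 library each. Without KO 3 the difference over the remaining libraries was −2.33, the reverse direction. Of the intragenic regions, 7 were held by KO 3 alone, at percentiles of 5.50 to 22.8 with a median of 8.10.

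**Figure D3:**
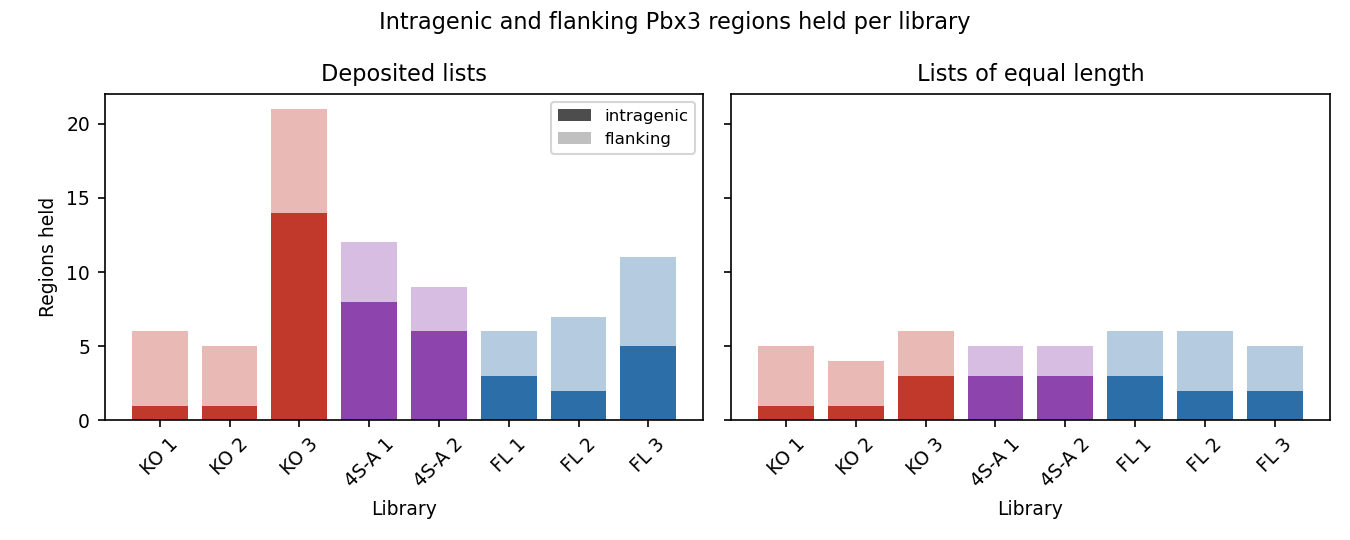
Number of regions held inside Pbx3 (dark) and in its flanks (light) in each library, in the deposited lists and in lists reduced to the length of the shortest. KO 3 holds 14 intragenic regions in the deposited lists and 3 in lists of equal length, where FL 3 holds 2.

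The added regions of KO 3 were mostly weak peaks of its list. When each list was reduced to its 51510 strongest peaks, the length of the FL 1 list, the number of intragenic regions was 1, 1 and 3 in KO 1 to KO 3, 3 in each 4S-A library, and 3, 2 and 2 in FL 1 to FL 3. The KO mean of 1.67 was then below the FL mean of 2.33 (two-sided exact permutation p = 0.6). Over the whole window KO 3 held 22 regions against 12 in FL 3 in the deposited lists, and 7 against 6 in lists of equal length. The KO 3 and FL 3 lists themselves were of similar length, 93041 and 91586 peaks. Scaled to list length, the window held 1.24, 0.811 and 2.36 regions per 10000 peaks in KO 1 to KO 3, 1.24 and 1.06 in the 4S-A libraries, and 1.36, 1.46 and 1.31 in FL 1 to FL 3. KO 3 was above and both other knockouts were below every FL library. The means were 1.47 ± 0.802 in KO and 1.38 ± 0.0750 in FL (SD, n = 3 each; two-sided exact permutation p = 1.0), and without KO 3 the KO minus FL difference became −0.35 (two-sided exact permutation p = 0.1, as low as 2 against 3 can go).

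Gene spans gave the background for the KO 3 count. Of 2073 protein-coding genes with at least 10 union regions in their span, 34 (1.64%) held at least 2 times as many regions in KO 3 as in FL 3, and Pbx3 was among them with 15 regions in KO 3 and 6 in FL 3, a ratio of 2.5. At least 2 times as many in FL 3 were held by 2.7% of genes. For the means of the Mx1-Cre set Pbx3 had 2 regions in KO and 3.5 in FL, a ratio of 0.571. That ratio did not pass the fold of 2, which 1.4% of genes passed in this direction and 10.8% in the other. The 4S-A mean of 8 against 6 in FL 3, a ratio of 1.33, did not pass it either, where 4.1% of genes had at least 2 times as many in 4S-A and 1.25% at least 2 times as many in FL 3.

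**Figure D4:**
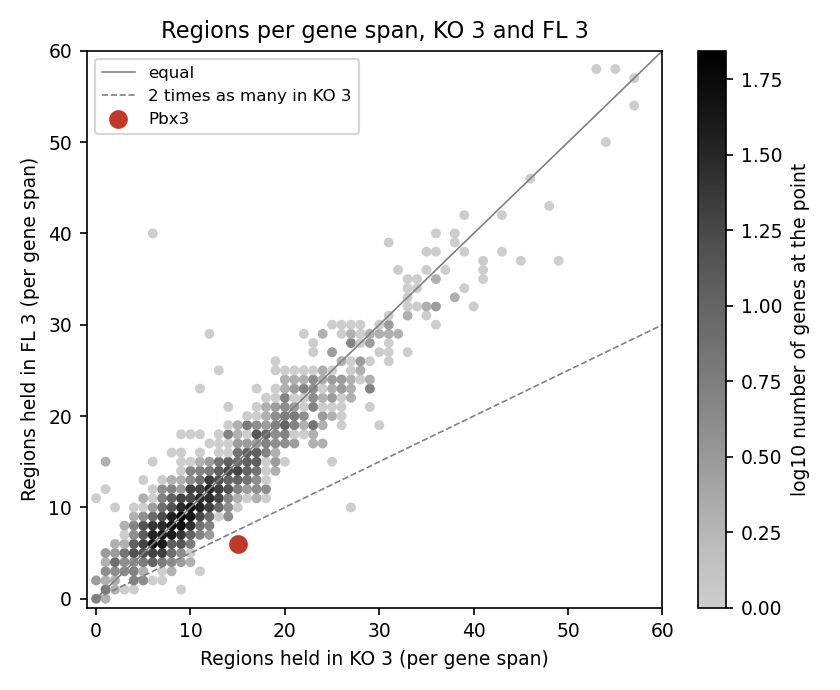
Regions held per protein-coding gene span in KO 3 (x axis) and FL 3 (y axis), for genes with at least 10 union regions, with darker points for more genes, a solid line at equality and a dashed line at 2 times as many in KO 3. Pbx3 lies at 15 and 6, among the 1.64% of genes on or below the dashed line, and 3 genes lie beyond the axes.

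The flanks held 11 regions, 3 of them in all 8 libraries. The strongest lay 34.8 kb outside the upper end of Pbx3, at the start of the neighbouring gene Mapkap1, which encodes the SIN1 subunit of the kinase complex mTORC2 (chromosome 2, 34406563 to 34407384). Its percentiles were 97.6, 97.4 and 99.6 in KO 1 to KO 3, 99.0 in each 4S-A library, and 97.7, 99.0 and 99.4 in FL 1 to FL 3. KO 1 and KO 2 were below FL 1 and FL 2 by a small margin, and KO 3 was above FL 3. The KO mean was 98.2 ± 1.24 and the FL mean 98.7 ± 0.854 (SD, n = 3 each; two-sided exact permutation p = 0.7, adjusted p = 0.875 over the 5 window regions held by all 6 libraries). Its RefSeq promoter (GRCm38.p6, the assembly also called mm10, chromosome 2, 34406601 to 34406900, plus strand) is shown because the summits of all 8 libraries fell inside it, with capitals at matches to the motifs searched.

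Mapkap1: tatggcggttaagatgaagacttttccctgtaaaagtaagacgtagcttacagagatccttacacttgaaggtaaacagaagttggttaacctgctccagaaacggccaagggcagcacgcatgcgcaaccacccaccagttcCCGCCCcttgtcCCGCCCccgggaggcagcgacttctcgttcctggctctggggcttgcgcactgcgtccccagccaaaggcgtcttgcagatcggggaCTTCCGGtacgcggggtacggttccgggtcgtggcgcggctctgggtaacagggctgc

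Counted from the 5′ end of that sequence, the summits lay at position 246 in KO 1 and KO 2, 236 in KO 3, 246 in both 4S-A libraries, and 246, 247 and 236 in FL 1 to FL 3. All matches were read on the opposite strand. The match to the ETS motif CCGGAAG began at position 243, and matches to the SP motif GGGCGG began at positions 144 and 156. On either strand CCGGAAG occurs in 9.12% and GGGCGG in 35.9% of 27025 promoters of the same length. The letters CCAAT, TGATTNAT (a PBX and HOX site) and TGACAG (a MEIS site) were searched on both strands and had no match in this window. They occur in 37.9%, 3.36% and 19.3% of promoters.

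Beyond the lower end of Pbx3, 2 further regions were held by all 8 libraries. The region 94.9 kb below that end, inside the long noncoding RNA gene C230014O12Rik (34076135 to 34076924), had percentiles of 47.5, 73.4 and 66.0 in KO 1 to KO 3, 55.8 and 51.8 in the 4S-A libraries, and 53.0, 32.2 and 71.3 in FL 1 to FL 3. The region 8.9 kb below the lower end (34162299 to 34162991) had 21.6, 23.9 and 47.6 in KO 1 to KO 3, 40.4 and 28.7 in the 4S-A libraries, and 21.9, 44.8 and 45.8 in FL 1 to FL 3. At both, KO and FL values overlapped, and the means differed by 10.1 and −6.51 percentiles (KO minus FL; two-sided exact permutation p = 0.6 and 0.9, adjusted p = 0.875 and 0.9). The 4S-A libraries were below both KO 3 and FL 3 at each region. A flanking region 31.4 kb below the gene (34139843 to 34140178) was held by all 3 knockouts, at 16.3, 39.5 and 13.2, and among the controls by FL 3 alone, at 41.3. The member nearest to the lower limit of the window, 4.54 kb inside it, was held by FL 2 alone at 8.47, and the nearest one outside that limit, 44.7 kb away, by all 8 libraries at 27.5 to 87.4. The member nearest to the upper limit was the Mapkap1 region, 65.2 kb inside it, and 8.13 kb outside that limit lay a region of 3 libraries at 2.77 to 21.1.

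Counting presence alone, no region of the window was lost or gained between KO and FL. A region was lost when every FL and no KO library held it, which 0.214% of regions common to the FL libraries met and 0 of 5 in the window, and gained in the reverse case, with 0.754% and 0 of 6. In the Mx1-Cre set 0 of 5 were lost (2.07% of all regions) and 1 of 6 was gained (13.5%), the one 31.4 kb below the gene. Between KO 3 and FL 3, 1 of 12 regions was lost (14.4%) and 11 of 22 were gained (15.3%), 9 of these 11 inside the gene. The gained regions stood at a median percentile of 8.53 in KO 3 (4.65 to 32.5), against 15.1 for all 13855 regions gained in KO 3. In lists of equal length 1 region was gained and 0 lost. Of the regions of FL 3, 3 of 12 were missing from both 4S-A libraries (11.7% of all regions), all in the lower flank, and 1 of 9 regions of both 4S-A libraries was missing from FL 3 (16.4%). The gained region lay 8.2 kb inside the upper gene end, at percentiles of 18.0 and 4.89 in the 4S-A libraries, and KO 3 held it too, at 27.8. Set against KO 3 and FL 3 together, both 4S-A libraries lacked 2 of 11 regions that the others shared (5.16% of all regions), and 0 of 9 were gained (10.8%).

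By strength, the 4S-A libraries were compared with KO 3 and FL 3 of the same set over the 8 window regions that all 4 held. Both 4S-A values were above both others at 2 of the 8, the intragenic regions at 136.4 and 122.3 kb, where 25.9% of all regions held by these libraries were. They were below both others at 3 of the 8, where 19.9% of all regions were, and those 3 were the flanking regions, Mapkap1 among them. The remaining 3 regions overlapped. In lists of equal length neither intragenic region met the rule, since 4S-A 1 stood at 44.3 and KO 3 at 48.0 at 136.4 kb, and FL 3 held no peak at 122.3 kb. Between KO and FL the percentiles of 0 of 5 regions were all higher in KO (3.86% of all regions) and of 0 of 5 all lower (0.965%), and in the Mx1-Cre set 0 of 5 were higher (36.3%) and 1 of 5, Mapkap1, lower (7.5%).

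Partners of PBX3 and genes known from MLL-rearranged leukemia were counted by the gene end region held by the most libraries. Ties went to the higher mean percentile, so a stronger region held by fewer libraries was passed over. Of 20 genes, 18 had such a region and 13 had it in all 8 libraries. Pbx4, a paralog of Pbx3, was the single gene of these 13 with every KO percentile above every FL percentile, at 98.1, 98.2 and 97.6 in KO 1 to KO 3, against 96.8, 96.7 and 95.9 in FL 1 to FL 3 (3.86% of all regions met that rule), and 0 of 13 were all lower. In the Mx1-Cre set 3 of 13 were higher in KO (Pbx4 and the TALE genes Pknox1 and Pknox2), beside 36.3% of all regions, and 2 were lower (the paralog Pbx2 and Hoxa7), beside 7.5%. Against KO 3 and FL 3, the 4S-A libraries were higher at 3 of 16 genes (the TALE genes Meis2 and Pknox1, and Myb, a transcription factor of blood progenitors), beside 25.9% of all regions, and lower at 5, beside 19.9% (Meis1, Pknox2, Hoxa9, the RUNX factor gene Runx2 and the receptor kinase gene Flt3). Meis1, whose product is a DNA-binding partner of PBX3, stood at 84.9 and 82.5 in the 4S-A libraries, against 85.2 in KO 3 and 88.5 in FL 3. By presence, the region of Hoxa5 was held by FL 1 to FL 3, at 72.3, 79.0 and 84.8, by KO 3, at 43.2, and by no other library. It met the rule for a loss in the Mx1-Cre set (2.07% of all regions) and for 4S-A against KO 3 and FL 3 (5.16%). No other gene of the list was lost or gained in a comparison.

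The genes whose percent of regions held was most like that of Pbx3 over the 8 libraries were Rassf3, of a family with Ras association domains, Lhfpl3, the adenylate kinase gene Ak9, Cwc27, of the spliceosome, and Atxn10. The mean absolute difference ranged from 7.22 percentage points for Rassf3 to 8.75 for Atxn10. Pbx3 held 11.1, 11.1 and 83.3% of its 18 regions in KO 1 to KO 3, 50.0 and 38.9% in the 4S-A libraries, and 22.2, 16.7 and 33.3% in FL 1 to FL 3. Rassf3 held 20.0, 20.0 and 80.0% of its 15 regions in KO 1 to KO 3, 53.3 and 46.7% in the 4S-A libraries, and 20.0, 26.7 and 46.7% in FL 1 to FL 3. The ratio of regions in KO 3 to FL 3 passed the fold of 2 at Ak9 (2.5, as at Pbx3) and Lhfpl3 (2.25). It did not at Rassf3 (1.71), Cwc27 (1.5) and Atxn10 (1.2). These genes were picked by the same percents, KO 3 and FL 3 included.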

How the data were processed

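The tools named, per the submitters' processing notes, are MACS2, Bowtie2 2.2.9, featureCounts, Picard and Trim Galore 0.4.4, with the build mm10 and no roles or parameters. Reactions used about 5000 cells and 13 to 16 PCR cycles, per the labels. The authors deposited 1 narrowPeak list per library. Each peak has a deposited fold enrichment (a ratio over the local background of its library), a −log10 p, a −log10 q, a score that is 10 times −log10 q truncated, and a summit. None is scaled between libraries, so comparisons of strength rest on ranks within a list. Where deposited fold enrichments of several libraries are set beside each other above, they are unscaled values. Peak names in the deposited KO 1 and KO 2 lists carry the numbers 2 and 3. Libraries follow the sample titles.

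Peaks on 19 autosomes and X were kept and merged over libraries where they shared at least 1 bp. A region's percentile in a library was that of its strongest peak. Gene spans and the promoter sequence came from RefSeq tables of GRCm38.p6. The Pbx3 promoter sequence was not used here. Differences were tested with exact permutation tests over libraries in python 3.11.15 with numpy 2.4.6. The call rules were run on simulated data with planted losses, gains and shifts, which checks the code and not the rate of false calls. Alternatives were equal-length lists, −log10 q of at least 2, overlap of 50% of the shorter peak, 50 kb flanks, a gene end distance of 2 kb, ranks of fold enrichment, leaving out each library and a replicate block. Same-numbered KO and FL libraries deviated together from their group means over 34313 regions (correlations of 0.265, 0.195 and 0.523 for numbers 1 to 3), although KO 1 with FL 2 gave 0.246. Numbers 1 and 2 belong to one Cre set and number 3 to the other. Named regions were those in all 8 libraries, those called in a comparison, those of 1 group of a set and the strongest of each class. The members, lists and tests were chosen with earlier results of these data known. Values of some genes on the lists are not reported here.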

Additional observations from a re-analysis of the deposited data

Results flagged for a closer look

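The KO minus FL difference had opposite directions in the Cre sets for 2 counts at the locus, with every knockout of the Mx1-Cre set below its controls and KO 3 above FL 3. For intragenic regions per library it was −1.5 with Mx1-Cre and 9 with Tie2-Cre. For window regions per 10000 peaks it was −0.38 with Mx1-Cre and 1.05 with Tie2-Cre. The unscaled number of window regions differed by −1 with Mx1-Cre and 10 with Tie2-Cre, with KO 1 and FL 1 equal at 7. The difference between the sets was not tested, since the Tie2-Cre set holds 1 KO and 1 FL library.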

How the results depend on the processing

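In equal-length lists the KO minus FL difference turned to −0.67 window regions, −0.13 window regions per 10000 peaks and −0.67 intragenic regions, against 2.67, 0.098 and 2 in the deposited lists. In the same lists the intragenic difference of the Tie2-Cre set was 1, its lost and gained regions were 0 and 1, lost regions were 1 for 4S-A against FL 3 and 1 against KO 3 and FL 3, and 0 regions were higher in 4S-A. Equal-length lists drop weak peaks by construction. Leaving out 1 library at a time, the KO minus FL difference ranged from −2.5 to 5.5 window regions, −0.35 to 0.43 per 10000 peaks, −2.33 to 4.17 intragenic regions, −2.71 to −0.52 percentiles at the gene end and 0.037 to 2.86 at the region 11.8 kb inside. The negative counts arose without KO 3. Regions lost and gained ranged from 0 to 0 and 0 to 1 for KO against FL, 0 to 3 and 1 to 2 in the Mx1-Cre set, 3 to 4 and 2 to 4 for 4S-A against FL 3, and 2 to 10 and 0 to 1 for 4S-A against KO 3 and FL 3. Regions all higher and all lower ranged from 0 to 1 and 0 to 1 for KO against FL, 0 to 3 and 1 to 4 in the Mx1-Cre set, and 2 to 4 and 3 to 5 for 4S-A. Ranks of fold enrichment, chosen after seeing the data, gave 1 region higher and 0 lower in the Mx1-Cre set. With the replicate block, exact permutation p over pairs was 0.5 for both percentiles (KO minus FL −1.73 and 1.21) and 1 for the 3 counts, with 0.25 the smallest possible. Its pairs were formed by the replicate number of the titles. Pairing within the Mx1-Cre set is uncertain, since KO 1 deviated with FL 2 (0.246) nearly as with FL 1 (0.265). The stricter q and the 50% overlap changed no direction or call. The 50 kb flanks, run for both window counts alone, and the 2 kb gene end, run for the intragenic counts alone, changed no direction.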
